A study of Mus musculus with 2 samples.

Results

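Genes of 3 microRNA families lie side by side at 3 places in the mouse genome, and the 9 genes counted there were followed in the hearts of newborn mice. Each cluster holds 1 gene of the Mir99/Mir100 family, 1 of the let-7 family and 1 of the Mir125 family, in that order along the chromosome. The members were chosen by gene name from the 1973 features of the deposited tables. They are Mir99a, Mirlet7c-1 and Mir125b-2; Mir100, Mirlet7a-2 and Mir125b-1; and Mir99b, Gm25927 and Mir125a. Gm25927 is an annotated feature on the strand opposite to Mirlet7e. Mirlet7e itself is not among the features counted, and the opposite-strand counts of Gm25927 are used in its place. The data come from heart tissue of B6NCrl mice at postnatal day 0, with no treatment or second condition in the labels. Small RNA shorter than 30 nt was sequenced from total RNA, with 1 library per heart. Replicate 1 is the heart of pup 1 and replicate 2 the heart of pup 3, so the spread between the hearts includes any difference between library preparations.

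A microRNA is cut from a hairpin precursor, and either side of the hairpin (the 5p or the 3p arm) can be loaded into an Argonaute protein. Bases 2 to 8 of the loaded arm, the seed, pair with target messenger RNAs. The arrangement of Mir99/Mir100, let-7 and Mir125 genes is old and is found in many animals, and one transcript can carry all members of a cluster, although each hairpin is processed and each mature arm decays on its own. The let-7 family is known for promoting differentiation and is blocked during maturation by Lin28. Mir125 is the relative of the worm gene lin-4, and the Mir99/Mir100 family is known for targeting Mtor and other growth genes. In zebrafish, members of the Mir99/Mir100 and let-7 families are known to fall during heart regeneration.

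The 5p arms show how close the clusters are to each other and which of them can be told apart by sequence. They are given 5′ to 3′ from RefSeq, build GRCm38.p6, with the seed in capitals, and grouped by shared seed.
miR-99a-5p: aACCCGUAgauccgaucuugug
miR-100-5p: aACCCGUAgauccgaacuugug
miR-99b-5p: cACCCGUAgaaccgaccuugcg
let-7c-5p: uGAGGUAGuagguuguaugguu
let-7a-5p: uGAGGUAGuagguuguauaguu
let-7e-5p: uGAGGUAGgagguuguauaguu
miR-125b-5p: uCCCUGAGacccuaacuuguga
miR-125a-5p: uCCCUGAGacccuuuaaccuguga
With positions counted from 1 at the 5′ end, miR-99a-5p and miR-100-5p differ by 1 base, U16A. The arm of Mir99b differs from that of Mir99a by 4 bases, A1C, U11A, U16C and U21C. In the let-7 family, let-7c-5p and let-7a-5p differ by G19A, and let-7a-5p and let-7e-5p by U9G. The 22 bases of miR-125b-5p and the 24 bases of miR-125a-5p share their first 13.

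The arms differ in how many annotated precursors hold them, which matters because the tables keep reads with several matches in the genome out of the gene rows. The 5p arms of Mir99a, Mir100, Mir99b, Mir125a and Mirlet7e were each found whole in 1 microRNA precursor of the annotation. That of Mirlet7c-1 was also found in Mirlet7c-2, and let-7a-5p, which the RefSeq table lists for Mirlet7a-1, was also found in Mirlet7a-2. Both Mir125b-1 and Mir125b-2 hold miR-125b-5p. These 4 genes can be told from their copies by the 3p arm, each of which was found in 1 precursor. The locus-specific arms are shown with bases 2 to 8 in capitals.
let-7c-1-3p: cUGUACAAccuucuagcuuucc
let-7a-2-3p: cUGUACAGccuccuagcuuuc
miR-125b-2-3p: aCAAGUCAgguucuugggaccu
miR-125b-1-3p: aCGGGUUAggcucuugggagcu
The tables give 1 count per gene, so the 5p and 3p arms cannot be separated in the values that follow.

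The Mirlet7e hairpin shows why counts at Gm25927 were read on the opposite strand. Gm25927 (ENSMUSG00000092799.1) is annotated on the minus strand at chr17:17830343-17830459, and the hairpin of Mirlet7e lies whole in its reverse complement, on the plus strand at chr17:17830352-17830444. It is printed with the 5p and 3p arms in capitals.
Mirlet7e hairpin: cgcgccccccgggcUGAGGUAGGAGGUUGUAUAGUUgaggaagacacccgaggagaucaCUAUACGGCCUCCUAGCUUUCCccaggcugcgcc
On its own strand Gm25927 had 0 counts in both libraries. On the opposite strand it had 24988 counts in replicate 1 and 31929 in replicate 2. Of the 12 features with 100 or more opposite-strand counts in each library it ranked 2, with 5.09% and 5.38% of all opposite-strand counts. The other 8 members had the reverse pattern, with 0 opposite-strand counts in both libraries. The tables do not separate Mirlet7e from other RNA of the plus strand at this site, so each value of Gm25927 is that of the site.

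The sense-strand totals were 6373797 in replicate 1 and 7630427 in replicate 2, and levels are given as counts per 1000000 of these totals (CPM). A count of 0 allows a level of up to 0.471 and 0.393 CPM, the level of 3 counts, and this floor and all intervals cover counting error only. Reads with several matches made up 35.9% (replicate 1) and 34.6% (replicate 2) of the sequenced reads. The heart microRNAs Mir208a, Mir208b and Mir499 were detected, and the cardiac muscle list, with 6 of its 7 genes counted, took 12.2% and 12.5% of counts. Its other genes, the muscle microRNAs Mir1a-1, Mir133a-1 and Mir133a-2, had only 8.89, 8.24 and 2.08 mean CPM, and Mir1a-2 is not among the features counted; what reads with several matches add to these genes was not tested. The endothelium list took 14.7% and 12.5%, smooth muscle 9.41% and 8.77%, and the erythroid, leukocyte and skeletal muscle lists 0.138% or less each. The hepatocyte microRNA Mir122 took 0.00446% or less, and 4 of the 5 neuronal genes counted were at 0 in both libraries. In heart tissue, more cells of a type and more RNA per cell cannot be told apart.

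The clusters differed widely in their counts, and Mir99a led them. The Mir99a cluster took 4.89% of the counts in replicate 1 and 3.87% in replicate 2, with 95% binomial intervals (Clopper-Pearson) of 4.87 to 4.90 and 3.85 to 3.88 and a mean of 4.38% ± 0.721 (SD, n = 2). The Mir99b cluster, with Mir99b and Mir125a alone, took 1.29% and 1.35%, a mean of 1.32% ± 0.0458, and with the opposite-strand counts of Gm25927 it came to 1.68% and 1.77%. The Mir100 cluster took 0.263% and 0.247%, a mean of 0.255% ± 0.0118. The order of the clusters was the same in both hearts and their ranges did not overlap. Counted with Gm25927, the Mir99b cluster lay below the Mir99a cluster by 2.91-fold (replicate 1) and 2.19-fold (replicate 2), and above the Mir100 cluster by 6.38-fold and 7.18-fold. All 9 members together took 6.83% and 5.88%. Reads with several matches are missing from the let-7 and Mir125 members of the Mir99a and Mir100 clusters. The shares of these clusters can therefore be too low. The part of such reads in the differences between clusters was not tested.

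Mir99a (ENSMUSG00000065530.1), at chr16:77598936-77599000 on the plus strand in an intron of the long noncoding host gene Mir99ahg, had 306345 counts in replicate 1 and 289482 in replicate 2. These are 48063 and 37938 CPM, which placed it at rank 6 and rank 9 of the genes counted. Mirlet7c-1 starts 721 nt further on, also in an intron of Mir99ahg, at chr16:77599657-77599750. It had 801 and 1127 counts, or 126 and 148 CPM. Mir125b-2 starts 47337 nt from Mir99a, at chr16:77646273-77646343, in an intron of Mir99ahg and overlapping the exon of the unclassified transcript C130023A14Rik. It had 4341 and 4478 counts, or 681 and 587 CPM. Mir99a therefore made up 98.3% and 98.1% of the counts of its cluster. Its counts were 70.6-fold (replicate 1) and 64.6-fold (replicate 2) those of Mir125b-2, and 382-fold and 257-fold those of Mirlet7c-1.

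Mir100 (ENSMUSG00000093011.1), at chr9:41531425-41531504 on the plus strand, lies in introns of the noncoding transcripts 3110039I08Rik and Gm49317. It had 14402 and 15836 counts, or 2260 and 2075 CPM, at ranks 43 and 46. Mirlet7a-2, at chr9:41536716-41536811 in introns of the same transcripts, had 493 and 833 counts, or 77.3 and 109 CPM. Mir125b-1, at chr9:41581926-41582002, lies in introns of both transcripts and in the exon of Gm28119, with 1883 and 2144 counts, or 295 and 281 CPM. Mir100 again led its cluster, at 85.8% and 84.2% of the counts, but by less than Mir99a led its own. It exceeded Mir125b-1 by 7.65-fold and 7.38-fold, and Mirlet7a-2 by 29.2-fold and 19.0-fold.

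Mir99b (ENSMUSG00000065396.1), at chr17:17830188-17830257 on the plus strand in an intron of the protein-coding gene Spaca6, had 56502 and 63857 counts, or 8865 and 8369 CPM, at ranks 21 and 22. The Mirlet7e site lies between Mir99b and Mir125a, in an intron of Spaca6, and its 24988 and 31929 opposite-strand counts are 3920 and 4184 CPM. Mir125a (ENSMUSG00000065479.1), at chr17:17830812-17830879, overlaps an exon of Spaca6 and had 25500 and 39252 counts, or 4001 and 5144 CPM. By these counts the Mir99b cluster was the most even, and each of its 5p arms is held by 1 precursor. Mir99b made up 52.8% in replicate 1 and 47.3% in replicate 2, Gm25927 23.4% and 23.6%, and Mir125a 23.8% and 29.1%. It exceeded Mir125a by 2.22-fold and 1.63-fold, and Gm25927 by 2.26-fold and 2.00-fold. Divided by precursor length, the mean log2 ratio of Mir99b to Gm25927 went from 1.09 to 1.83. The length used for Gm25927 was its annotated 117 nt, whereas the Mirlet7e hairpin has 93 nt. The Mir99b cluster is also the most compact in the genome, spanning 692 nt, against 47408 nt for the Mir99a cluster and 50578 nt for the Mir100 cluster.

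**Figure D1:**
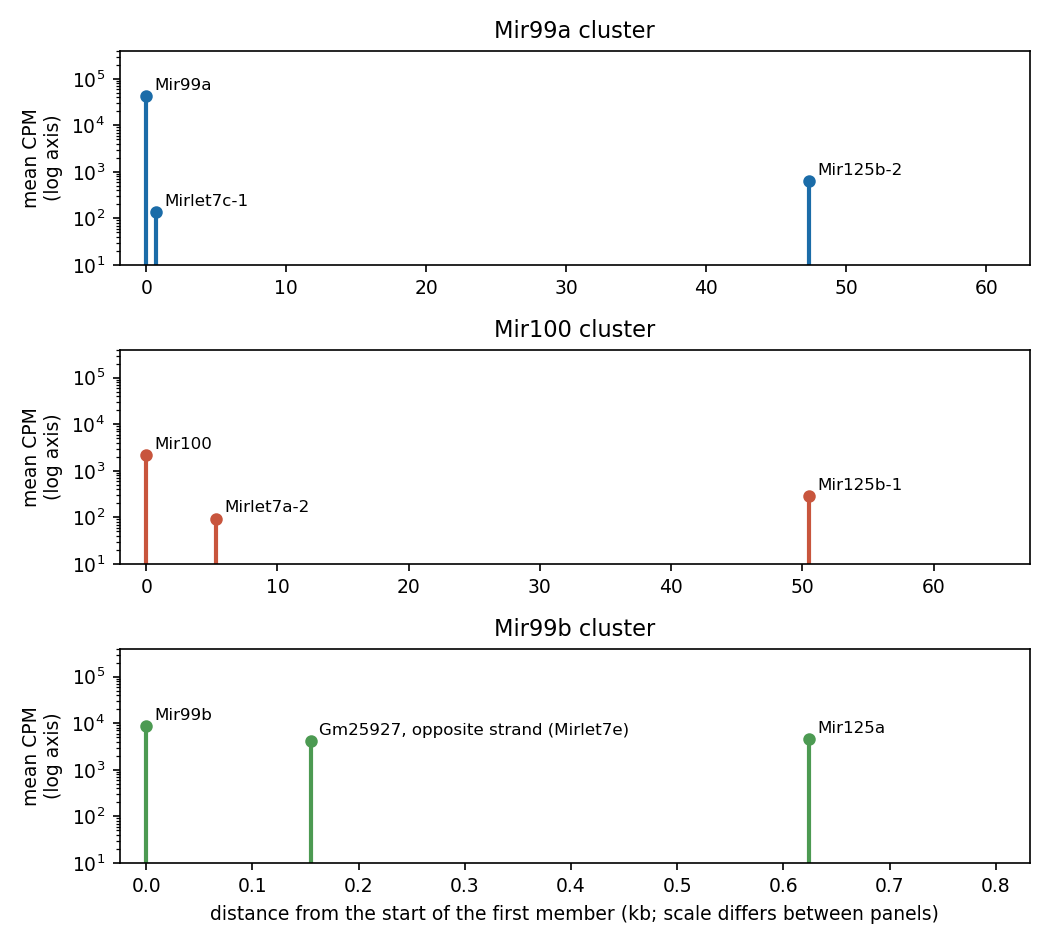
Mean CPM of 2 hearts (vertical, log axis; the stems start at 10 CPM and only mark position) against the distance of each member from the start of the first member of its cluster (horizontal, kb, with its own scale in each panel). The Mir125 members lie 47337 nt (Mir99a cluster), 50501 nt (Mir100 cluster) and 624 nt (Mir99b cluster) from the first member. In each panel the first member is the highest. The counts lack reads with several matches.

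**Figure D2:**
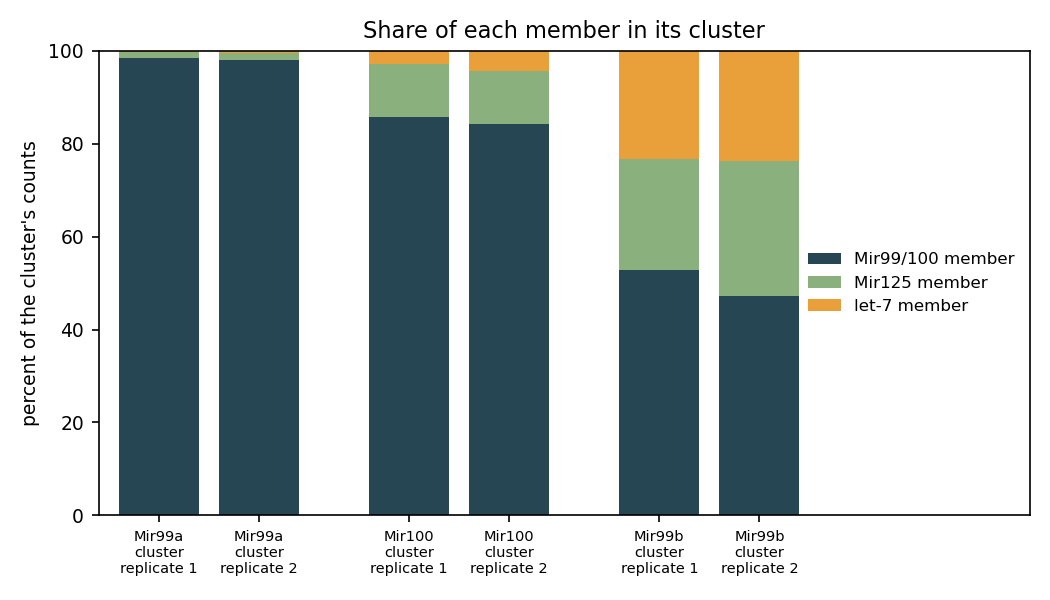
Percent of the counts of each cluster (vertical) taken by its Mir99/100, Mir125 and let-7 members in each of 2 hearts, with Mirlet7e taken from the opposite-strand counts of Gm25927. The dark Mir99/100 segment covers 98.3% and 98.1% of the Mir99a cluster, and 85.8% and 84.2% of the Mir100 cluster. It covers 52.8% and 47.3% of the Mir99b cluster. The counts lack reads with several matches.

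Ordered by mean level, the members ran Mir99a, Mir99b, Mir125a, Gm25927, Mir100, Mir125b-2, Mir125b-1, Mirlet7c-1 and Mirlet7a-2. Of the 8 pairs of neighbours in this order, the ranges over the hearts overlapped in 1. That pair was Mir125a, at 4001 and 5144 CPM, and Gm25927, at 3920 and 4184 CPM, which therefore do not differ beyond the spread between hearts. Within a library the higher of the neighbours differed from the lower in all 16 tests (2-sided exact binomial test against 1 to 1, Benjamini-Hochberg adjusted), with the weakest result for Mir125a over Gm25927 in replicate 1, 1.02-fold at adjusted p = 0.023. The binomial test covers counting error within a library only. The annotated arms are 21 to 24 nt long, read lengths were not measured here, and counts were not divided by precursor length.

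In both hearts and in all 3 clusters the Mir99/100 member stood highest, the Mir125 member next and the let-7 member lowest, although for Mir125a over Gm25927 the difference did not exceed the spread between hearts. The 5 members whose 5p arm is held by 1 precursor had 2075 to 48063 CPM, and the 4 whose 5p arm is held by 2 precursors had 77.3 to 681 CPM, without overlap. In the Mir99a and Mir100 clusters the let-7 and Mir125 members all belong to the second kind. Reads with several matches are missing from their counts, which can be too low. The part of these reads in the order and the shares within those clusters was not tested. In the Mir99b cluster, where all 3 arms are held by 1 precursor, the let-7 and Mir125 members lay close together in counts. These counts were not divided by precursor length, which is 68 nt for Mir125a and an annotated 117 nt for Gm25927. The ratio of this pair was not examined with such division.

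**Figure D3:**
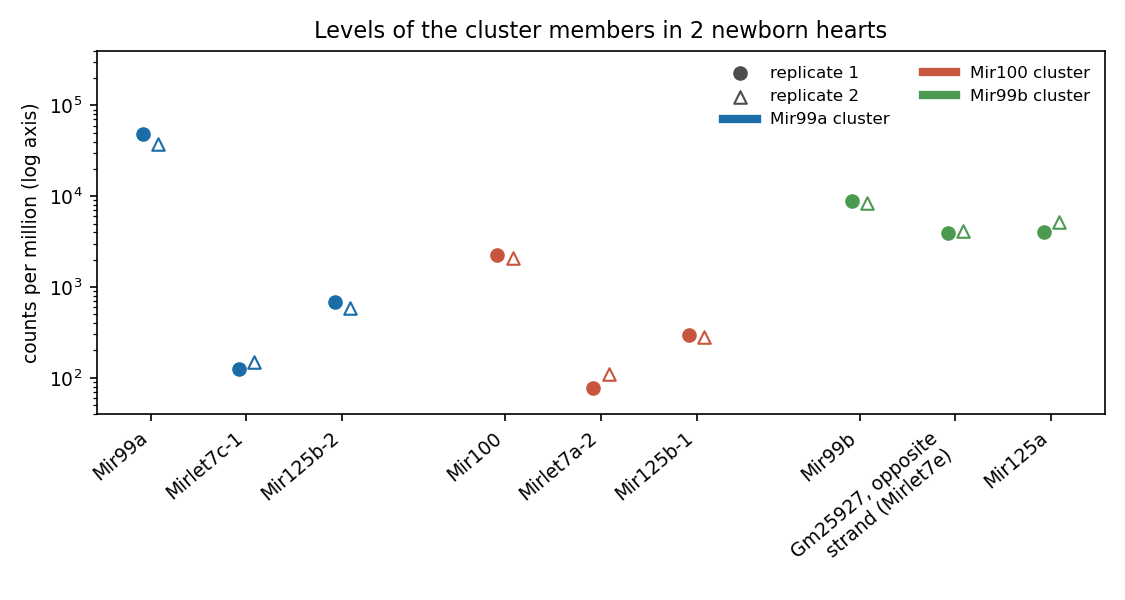
CPM of each member (vertical, log axis) in replicate 1 (filled circles) and replicate 2 (open triangles), coloured by cluster. Mir99a stands at 48063 and 37938 CPM, Mir99b at 8865 and 8369 and Mir100 at 2260 and 2075. The lowest member, Mirlet7a-2, stands at 77.3 and 109. The counts lack reads with several matches.

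Genes of the same family were compared across the clusters. Mir99a stood 5.42-fold (replicate 1) and 4.53-fold (replicate 2) above Mir99b, with a log2 ratio of 2.31 ± 0.18 (SD, n = 2). It exceeded Mir100, from which its 5p arm differs by 1 base, by 21.3-fold and 18.3-fold, with a log2 ratio of 4.30 ± 0.15. Mir99b exceeded Mir100 by 3.92-fold and 4.03-fold. In the Mir125 family the order of the clusters was different, with Mir125a of the Mir99b cluster above Mir125b-2 by 5.87-fold and 8.76-fold and above Mir125b-1 by 13.5-fold and 18.3-fold. The pair with the same 5p arm, Mir125b-2 and Mir125b-1, differed by 2.31-fold and 2.09-fold. In the let-7 family, Gm25927 exceeded Mirlet7c-1 by 31.2-fold and 28.3-fold, and Mirlet7a-2 by 50.6-fold and 38.3-fold. Mirlet7c-1 exceeded Mirlet7a-2 by 1.62-fold and 1.35-fold. The Mir125b, Mirlet7c-1 and Mirlet7a-2 ratios carry the limit on repeated arms given above.

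All genes with the seed of a member were taken from the RefSeq table, to set the members beside the others of each seed. Counts are per gene and hold both arms. The shares are therefore those of genes that have the seed, not of reads that carry it. The seed ACCCGUA was found in Mir99a, Mir99b and Mir100 alone. The clusters thus supplied all counts of genes with this seed, 5.92% of the library in replicate 1 and 4.84% in replicate 2. Mir99a gave 81.2% and 78.4% of these, Mir99b 15.0% and 17.3%, and Mir100 3.82% and 4.29%. Among genes with the seed CCCUGAG, the highest count belonged to a gene outside the clusters. Mir351, an X-linked microRNA beside Mir322 and Mir503, had 11361 and 16262 CPM, and its 5p arm shares the first 8 bases with that of Mir125a.
miR-351-5p: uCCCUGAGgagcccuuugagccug
Mir351 had 2.84-fold and 3.16-fold the counts of Mir125a, and 2.28-fold and 2.70-fold those of Mir125a, Mir125b-1 and Mir125b-2 together. The members thus made up 30.5% and 27.0% of the counts of genes with this seed. Mir6367 and Mir6394, which also have the seed, were at 0 in both libraries. The arm miR-125b-5p is held by 2 precursors and miR-351-5p by 1. Reads with several matches are missing from the Mir125b counts, so the share of the members can be too low. The part of these reads in the lead of Mir351 was not tested.

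The let-7 seed GAGGUAG was found in 14 genes, counting Mirlet7a-2 by the let-7a-5p in its hairpin, and 13 of them could be given a count, with Mirlet7e again taken from Gm25927. The 3 cluster members made up 3.78% and 3.86% of these counts, nearly all of it from Gm25927 at 3.60% and 3.64%. Mirlet7i, at 42605 and 45021 CPM, and Mirlet7g, at 41705 and 42997 CPM, had the highest counts of these genes. Gm25927 lay beside Mirlet7b, at 4413 and 4540 CPM, and Mir98, at 3592 and 3667 CPM. Mirlet7c-1 and Mirlet7a-2 lay beside their copies Mirlet7c-2, at 107 and 149 CPM, and Mirlet7a-1, at 96.8 and 147 CPM, so that all 4 genes with let-7a-5p or let-7c-5p were between 77.3 and 149 CPM. Mirlet7f-1 is not among the features counted. The arms let-7a-5p and let-7c-5p are each held by 2 precursors, and Mirlet7f-2 shares 22 nt with Mirlet7f-1. Reads with several matches are missing from the counts of such genes, which can be too low. The part of these reads in the order of the let-7 genes and in the share of the members was not tested.

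**Figure D4:**
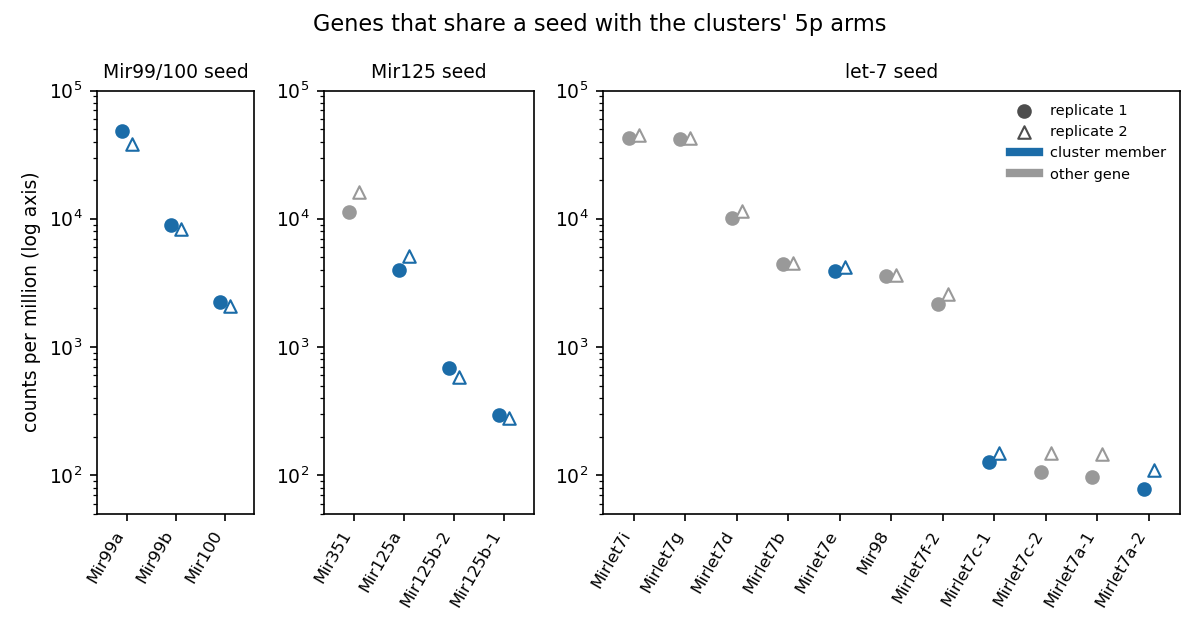
CPM (vertical, log axis) in replicate 1 (filled circles) and replicate 2 (open triangles) of genes with 50 or more mean CPM that share a seed with the 5p arms of the clusters; cluster members are blue, other genes grey, and Mirlet7e is taken from the opposite-strand counts of Gm25927. All Mir99/100 seed genes are members, Mir351 at 11361 and 16262 CPM lies above the Mir125 members, and Mirlet7i and Mirlet7g lie above every let-7 member. Reads with several matches are missing from these counts.

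The hearts were compared gene by gene with a 2-sided exact binomial test given the library totals, Benjamini-Hochberg adjusted over all genes tested, at a threshold of 0.05. It compares these libraries and counts sampling noise only. Of the 8 members with sense counts 7 passed, where 31.0% of all 435 genes tested passed and 64.4% of the 174 genes whose summed counts were 1000 or more. A high share is thus common among abundant genes. Of the 7, 3 were higher in replicate 2 and 4 in replicate 1. The median log2 ratio of replicate 2 over replicate 1 was -0.08 over the 8 members. It was 0.02 over all genes tested and 0.004 over the 174 genes with summed counts of 1000 or more. The median size was 0.22 over the 8 members, beside 0.21 over all genes tested and 0.12 over the 174. All 8 members have summed counts of 1000 or more. Gm25927 passed in the opposite-strand column, where 61.1% of 18 features did.

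Of the 435 genes tested, 52 passed as higher in replicate 1 and 83 as higher in replicate 2. Of the 174 with summed counts of 1000 or more, 48 and 64 did. Of the 18 opposite-strand features, 5 and 6 did. By family, the Mir99/100 genes were all higher in replicate 1. Mir99a was higher there by 1.27-fold (adjusted p from the exact binomial test below 1e-300), Mir100 by 1.09-fold (adjusted p = 1.30e-12) and Mir99b by 1.06-fold (adjusted p = 2.31e-22). The let-7 members were all higher in replicate 2. Mirlet7a-2 was higher there by 1.41-fold (adjusted p = 5.59e-09), Mirlet7c-1 by 1.18-fold (adjusted p = 1.88e-03) and Gm25927 by 1.07-fold (adjusted p = 5.10e-14). The Mir125 genes were divided. Mir125a was 1.29-fold higher in replicate 2 (adjusted p = 4.07e-216), Mir125b-2 was 1.16-fold higher in replicate 1 (adjusted p = 2.35e-11), and Mir125b-1, at 295 and 281 CPM, did not pass (adjusted p = 0.261). These directions held under all scalings tried for this comparison. When a biological coefficient of variation of 0.1 was allowed for in edgeR's exact test, 0 of the 8 sense members passed (1 at an unadjusted p under 0.05), and 1 of all genes did.

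**Figure D5:**
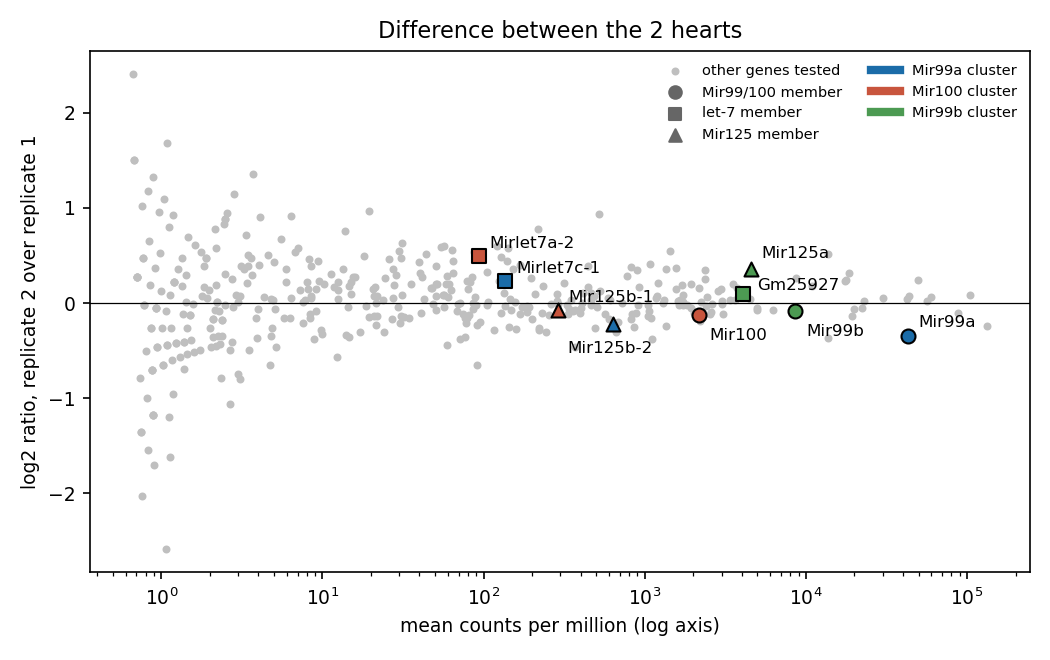
Log2 ratio of replicate 2 over replicate 1 (vertical) against mean CPM (horizontal, log axis) for the 435 genes tested (grey, members apart) and the members, with shape for the family and colour for the cluster. The 3 Mir99/100 members lie below 0, at -0.34 for Mir99a, -0.12 for Mir100 and -0.08 for Mir99b, and the 3 let-7 members above 0, at 0.50 for Mirlet7a-2, 0.23 for Mirlet7c-1 and 0.09 for Gm25927.

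The ratio of one member to another in the same cluster differed between the hearts in 5 of the 6 pairs within a cluster. Each pair was tested with Fisher's exact test (2-sided, Benjamini-Hochberg adjusted over 15 pairs), which needs no scaling of libraries. With the pairs between clusters, the ratio differed in 14 of the 15. Thinned to the smaller total it differed in 12, as Mir99b to Mir100 and Gm25927 to Mirlet7c-1 no longer passed. By the same kind of test the ratio differed in 69.0% of the 15051 pairs of sense genes with 1000 or more counts, so that a difference is common among abundant genes. In all 3 clusters the Mir99/100 member was lower against its let-7 neighbour in replicate 2, by log2 shifts of -0.57 for Mir99a to Mirlet7c-1 (adjusted p = 1.07e-17), -0.62 for Mir100 to Mirlet7a-2 (adjusted p = 1.21e-13) and -0.18 for Mir99b to Gm25927 (adjusted p = 1.00e-32). The direction of these 3 shifts follows from the differences by family given above, which used the same counts. Mir99b also fell against Mir125a, with a shift of -0.45 (adjusted p = 4.67e-214, Fisher's exact test). Mir99a to Mir125b-2 shifted by -0.13 (adjusted p = 6.80e-05). The ratio of Mir100 to Mir125b-1, 7.65 and 7.38, did not pass (adjusted p = 0.306). These tests count sampling noise between 1 library of each heart, and a difference between animals cannot be told apart from one between library preparations.

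Of the 8 other let-7 genes counted, 7 were higher in replicate 2 by the exact binomial test over all genes and 0 were higher in replicate 1, where 19.1% of all genes tested and 36.8% of those with 1000 or more counts were higher in replicate 2. Mir98, at 3592 and 3667 CPM, did not pass. The count was 6 with TMM, with DESeq2 size factors or without the members in the totals, each of which lost Mirlet7b, and 5 with the most abundant gene left out of the total, which also lost Mirlet7g and put Mir98 on the side of replicate 1. With a coefficient of variation of 0.1 allowed for, edgeR's exact test called 0 of the 8 (2 at an unadjusted p under 0.05). The median log2 ratio of the 8 was 0.13, beside 0.02 over all genes tested and 0.004 over those with 1000 or more counts. The copies of the cluster genes had the largest differences of the 8, 1.51-fold for Mirlet7a-1 and 1.40-fold for Mirlet7c-2, which lie beside the 1.41-fold of Mirlet7a-2 and the 1.18-fold of Mirlet7c-1. These are genes with repeated arms, and the share of reads with several matches, 35.9% in replicate 1 and 34.6% in replicate 2, also differed between the libraries; its part in these differences was not tested. Mirlet7g and Mirlet7i, the most abundant, differed by 1.03-fold and 1.06-fold. Mir351, of the Mir125 seed, was higher in replicate 2 by 1.43-fold (adjusted p from the exact binomial test below 1e-300), on the same side as Mir125a.

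With 2 libraries, likeness between genes comes down to 1 ratio. Among 70 other genes with 1000 or more mean CPM, those nearest to the log2 ratio of Mir99a, -0.34, were Mir208a at -0.36, Mir195a at -0.37 and Mir101b at -0.24. Nearest to Mir100, at -0.12, were Mir106b at -0.11, Mir21a at -0.13 and Mir411 at -0.11. Nearest to Mir99b, at -0.08, were Mir10b at -0.08, Mir27b at -0.09 and Mir499 at -0.08.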

How the data were processed

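Small RNA libraries from 2 newborn hearts were analysed, 1 group with no contrast. The deposited tables hold whole-number read counts per gene, without normalization, in build mm10 with GENCODE annotation M4, per the files that accompany them. For the aligner, the counter and the trimming nothing is given in the sources used here. The count columns were read from their values as both strands, the strand of the gene and the opposite strand. Rows that name no gene stayed out of totals. Of all reads, 12.6% and 15.5% were unmapped and 1.93% and 2.28% fell in no gene. Names and positions came from GENCODE M21, which matched 1894 of 1973 identifiers. Both libraries carry the same donor record in the labels, which name separate pups.

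CPM used the sense totals. Log2 ratios used 0.5 added counts, and genes were tested from a summed count of 10 upward. edgeR's quasi-likelihood test needs a contrast with replicates and was not used. The binomial comparison was checked on simulated counts that hold sampling noise only. The members, lists and tests were chosen with earlier results of these data known. Named genes were the 9 members, the other let-7 genes, genes of the same seed with 100 or more mean CPM (those at 0 were named after their values were seen), the 3 genes nearest to each leading member, and tissue markers. Tools were Python 3.11.15, SciPy 1.17.1, pandas 2.3.3, R 4.3.3, edgeR 4.0.16 and DESeq2 1.42.0 (size factors only).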

Additional observations from a re-analysis of the deposited data

How the results depend on the processing

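The order of the clusters and the direction of all 15 pair ratios held under each alternative run for them. The direction of all 9 members between the hearts held under each count minimum, scaling, strand choice and thinning run for it. edgeR's exact test used the same log2 ratios, so it could not change a direction. With all reads as the total, the hearts were not compared. Of the cluster shares, only that of Mir99a stayed within its spread with other totals, except with all reads as the total, which gave 1.98%, 0.115% and 0.594% for the Mir99a, Mir100 and Mir99b clusters. With both strands, in the counts or only in the total, the Mir100 and Mir99b clusters took 0.237% and 1.22%, and with the most abundant gene left out of the total 0.294% and 1.52%. With Gm25927 the Mir99b cluster took 1.72%, an alternative chosen after seeing the data, as was dividing by precursor length. Such division moved 9 of the 15 pair ratios by more than the spread between hearts. It gave log2 ratios of 4.60 for Mir99a to Mir100, 2.18 for Mir99b to Mir100 and 8.82 for Mir99a to Mirlet7c-1 (from 8.29). Mir99b to Gm25927 went to 1.83 (from 1.09), with the annotated 117 nt as the length of Gm25927. In edgeR's exact test with an assumed coefficient of variation of 0.1, 0 of the 8 sense members and 1 of all genes passed (1 and 29 unadjusted), and at 0.2 the edgeR exact test gave 0 and 0 (0 and 4 unadjusted). It was not run on the opposite-strand column. The range over the other settings was 7 of 8 members in each and 129 to 146 of all genes. Of the other let-7 genes, examined under these settings after seeing the data, edgeR's exact test called 0 at both coefficients (2 and 0 unadjusted), and 5 to 8 were called higher in replicate 2 under the other settings. Thinned to the smaller total, the pairs Mir99b to Mir100 and Gm25927 to Mirlet7c-1 no longer passed. No paired analysis was possible because there is 1 group. Leaving out 1 library leaves no test between hearts.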
